A study of Mus musculus with 8 samples.

Results

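The replication-dependent histone genes of the mouse were followed in CD8+ T cells from tumours of Pglyrp1 knockout (KO) and wild-type (WT) mice. All symbols of the deposited table that name a gene of the Hist1, Hist2, Hist3 or Hist4 cluster were taken, without regard to their values. This gave 67 of 20029 genes: 6 of class H1, 17 of H2A, 19 of H2B, 12 of H3 and 13 of H4. The 4 KO libraries, numbered 1 to 4, came from B6.129S4-Pglyrp1tm1.1Lky/J mice, and the 4 WT libraries, numbered 6 to 9, from C57BL/6J mice. The KO strain lacks the gene in all its cells, so the T cells' own genotype and that of their surroundings cannot be told apart, and the labels do not say that KO and WT mice were littermates. Mice of both genotypes received the colon carcinoma line MC38-OVA under the skin of the flank, and 1000 living cells stained for CD45, TCRß and CD8 were sorted per library. Neither the age of the mice nor the day of harvest is in the labels.

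Core histones H2A, H2B, H3 and H4 form the octamer around which DNA is wrapped, and the linker histone H1 binds where the DNA enters and leaves it. The canonical genes lie in clusters, are copied mainly in S phase when new DNA has to be packed, and give mRNAs that end in a conserved stem-loop and not in a poly(A) tail. Dividing T cells make these mRNAs in large amounts, and resting T cells make little. Histone mRNA with a poly(A) tail also exists, above all in cells that have left the cycle. Library synthesis by SMART-Seq2 in its usual form primes on poly(A) tails. How the modified protocol used here primed is not given in the sources used here, so the levels below are those of histone RNA as this method captured it.

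Of the 67 genes, 53 lie on chromosome 13 (the Hist1 cluster), 10 on chromosome 3 (Hist2), 3 on chromosome 11 (Hist3) and 1 on chromosome 6 (Hist4h4). The annotation (GENCODE M21, GRCm38) lists 66 as protein-coding and Hist3h2bb-ps as a processed pseudogene, which was kept because its symbol fits. The 3′ stem-loop was found by its consensus in the annotated transcripts of 41 of the 67. The other 26 have none in the annotated stretch, which says only that these letters are not there. The 4-base loop was TTTC in 34 transcripts, TTTA in 6 and TCTC in 1. The elements below belong to the most abundant gene (Hist1h2ao), to the pair of H3 genes with the largest KO minus WT differences (Hist1h3b and Hist1h3c), and to the most abundant H4 gene (Hist1h4d). They are given 5′ to 3′ on the gene's strand with the loop in capitals, and lie at chr13:21810893-21810918 (plus strand), chr13:23752815-23752840 (plus), chr13:23745042-23745067 (minus) and chr13:23581945-23581970 (plus), read from GENCODE M21 transcripts on GRCm38.
Hist1h2ao: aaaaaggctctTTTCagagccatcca
Hist1h3b: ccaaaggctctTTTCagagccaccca
Hist1h3c: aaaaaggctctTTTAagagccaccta
Hist1h4d: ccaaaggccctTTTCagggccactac
Hist1h3c carries the rarer TTTA loop, which it shares with Hist1h1t, Hist1h2bb, Hist1h2bk, Hist1h3e and Hist1h3f. In 21 of the 41 transcripts at least 100 bases follow the stem-loop in the annotation, so that a longer form is annotated there, and in 20 fewer than 100 follow. The 20 with the short end hold a summed mean level of 1683 TPM and the 21 with the long end 227 TPM. Hist1h2ao and Hist1h2ap make up most of the first sum.

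Promoter windows of 300 bases, from 250 before to 50 after the RefSeq start (GRCm38.p6), were at hand for 61 of the 67 genes. These were 62 windows, as Hist1h2be had an additional window. A histone gene counted as having a motif if any of its windows did, while the shares of all promoters count windows. The CCAAT box, read as CCAAT or its reverse complement ATTGG, was in 52 of these 61 genes (85.2%) and in 37.4% of all 32851 promoter windows. It was in every gene of H1 (6), H2A (17), H2B (16) and H3 (10) with a window, and in 3 of the 12 H4 genes, Hist1h4a, Hist1h4c and Hist1h4d. The octamer ATTTGCAT, which the Oct-1 protein binds in H2B promoters, was in 6 of 17 H2A and 7 of 16 H2B genes and in no H1, H3 or H4 window. Not all windows of Hist1h2be, which is among the 7, hold it. Over all promoter windows its share was 1.74%. TATAAA was in 34 of the 61 (55.7%), against 13.6% of all windows. All of these letters were searched on both strands, and each motif was counted for itself, whether or not it overlapped another. Neighbouring H2A and H2B genes read in opposite directions can have overlapping windows, so the same bases can count in both classes. The ATTTGCAT of Hist1h2ae is also that of Hist1h2bg, and that of Hist1h2ah also that of Hist1h2bk. The windows shown are those of Hist1h2ao (chr13:21810117-21810416, plus strand), of Hist1h2ae (chr13:23571171-23571470, minus), whose KO and WT levels did not overlap, and of Hist1h3c (chr13:23745472-23745771, minus) and Hist1h4d (chr13:23581318-23581617, plus). They run 5′ to 3′ on the gene's strand, and capitals mark CCAAT, ATTTGCAT and TATAAA in either orientation.
Hist1h2ao: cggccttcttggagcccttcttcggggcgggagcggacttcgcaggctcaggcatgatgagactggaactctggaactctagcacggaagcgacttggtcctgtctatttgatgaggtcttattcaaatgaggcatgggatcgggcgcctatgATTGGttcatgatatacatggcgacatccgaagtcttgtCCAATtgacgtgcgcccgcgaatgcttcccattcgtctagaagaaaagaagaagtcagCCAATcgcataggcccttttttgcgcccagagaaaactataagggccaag
Hist1h2ae: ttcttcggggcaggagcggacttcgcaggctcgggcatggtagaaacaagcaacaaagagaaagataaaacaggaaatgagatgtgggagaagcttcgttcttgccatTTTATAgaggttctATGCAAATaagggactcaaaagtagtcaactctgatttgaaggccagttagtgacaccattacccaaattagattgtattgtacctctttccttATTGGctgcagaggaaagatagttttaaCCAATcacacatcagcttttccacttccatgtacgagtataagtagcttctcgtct
Hist1h3c: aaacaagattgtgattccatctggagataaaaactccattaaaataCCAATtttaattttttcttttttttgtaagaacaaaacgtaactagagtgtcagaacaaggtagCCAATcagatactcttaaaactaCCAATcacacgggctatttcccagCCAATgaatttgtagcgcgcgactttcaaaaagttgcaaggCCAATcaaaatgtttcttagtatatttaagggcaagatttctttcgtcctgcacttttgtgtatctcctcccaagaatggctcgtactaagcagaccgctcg
Hist1h4d: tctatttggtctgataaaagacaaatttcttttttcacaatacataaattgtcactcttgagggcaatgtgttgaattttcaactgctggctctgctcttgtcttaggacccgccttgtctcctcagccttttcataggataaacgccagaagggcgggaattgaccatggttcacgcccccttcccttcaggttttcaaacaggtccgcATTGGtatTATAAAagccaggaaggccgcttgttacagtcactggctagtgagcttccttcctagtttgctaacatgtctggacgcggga
The RefSeq start of Hist1h2ao lies before the GENCODE start, so its window ends ahead of the GENCODE transcript.

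Levels are written in TPM, obtained by rescaling each library of the deposited table to the same sum. The authors name the deposited values TPM-normalized, which would make them levels per transcript length, but the scaling step is not given in the sources used here. Shares of classes and ratios between genes rest on that name. The number of reads behind a value is unknown, because the table holds no counts. For Pglyrp1, the targeted gene, each KO library held 0 TPM, against 123, 210, 208 and 153 TPM for WT 6 to WT 9 (limma adjusted p = 2.93e-07, over 10732 genes tested). The 10 T cell identity genes summed to 6052 to 6851 TPM in KO and 6222 to 8346 TPM in WT libraries. The 19 myeloid genes in the table had sums of 592, 462, 6118 and 9366 TPM (KO 1 to KO 4), against 324 to 671 TPM in WT libraries, so KO 3 and KO 4 stood apart before any histone result. The 7 natural killer cell genes summed to 104 to 226 TPM in KO and 44.4 to 77.8 TPM in WT libraries. The 6 epithelial genes summed to 4.85 to 80.8 TPM in KO and 3.15 to 21.1 TPM in WT libraries, with Cldn7 listed at 0 throughout. The 5 fibroblast genes summed to 0 to 45.4 TPM in KO and 0 to 0.787 TPM in WT libraries, with Pdgfrb at 0. The 6 B and plasma cell genes summed to 6.05 to 20.8 TPM in KO and 7.197 to 49.95 TPM in WT libraries, and the 5 erythroid genes to 1.79 to 1372 TPM in KO and 3.66 to 476 TPM in WT libraries. The part of these other cells in the histone values was not tested.

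Histone RNA was dominated by 2 H2A genes. Hist1h2ao, which encodes a canonical H2A, had 440, 1115, 979 and 887 TPM in KO libraries 1 to 4, against 405, 1386, 954 and 470 TPM in WT libraries 6 to 9. Hist1h2ap, another canonical H2A gene, had 431, 791, 668 and 613 TPM in KO libraries, against 278, 1341, 773 and 273 TPM in WT libraries. For both genes the highest level was in WT 7, the lowest levels were in WT 6, WT 9 and KO 1, and KO and WT values overlapped. Together they held 61.2% to 69.1% of the TPM of all 67 histone genes, with a mean share of 63.5 ± 1.68% in KO and 64.5 ± 3.54% in WT libraries (SD, n = 4 each). Class H2A as a whole held 69.4% to 74.2%, H3 10.01% to 16.1%, H4 7.04% to 15.0%, H2B 3.78% to 6.79% and H1 0.833% to 1.98%. One nucleosome takes equal amounts of each core histone, and the captured RNA was far from equal between the classes.

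The 2 genes can hardly be told apart by reads of 38 bases. All 452 aligned bases of their transcripts were identical, and 6.32% of the 38-base words of the Hist1h2ao transcript occur in no other gene of the table (6.74% for Hist1h2ap). How the values were divided between them rests on the authors' read assignment, and their sum is the safer quantity. The same holds for many members: the median share of own 38-base words was 47.7%, and 34 of the 67 genes had under 50%. The medians by class were 97.8% for H1, 20.5% for H2A, 52.2% for H2B, 40.6% for H3 and 55.8% for H4. Hist1h2bq and Hist1h2br, which differ by almost no 38-base word, had the same value in each of the 8 libraries. An entry of 0 in such a family can be an estimate that failed and is called listed at 0 here.

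**Figure D1:**
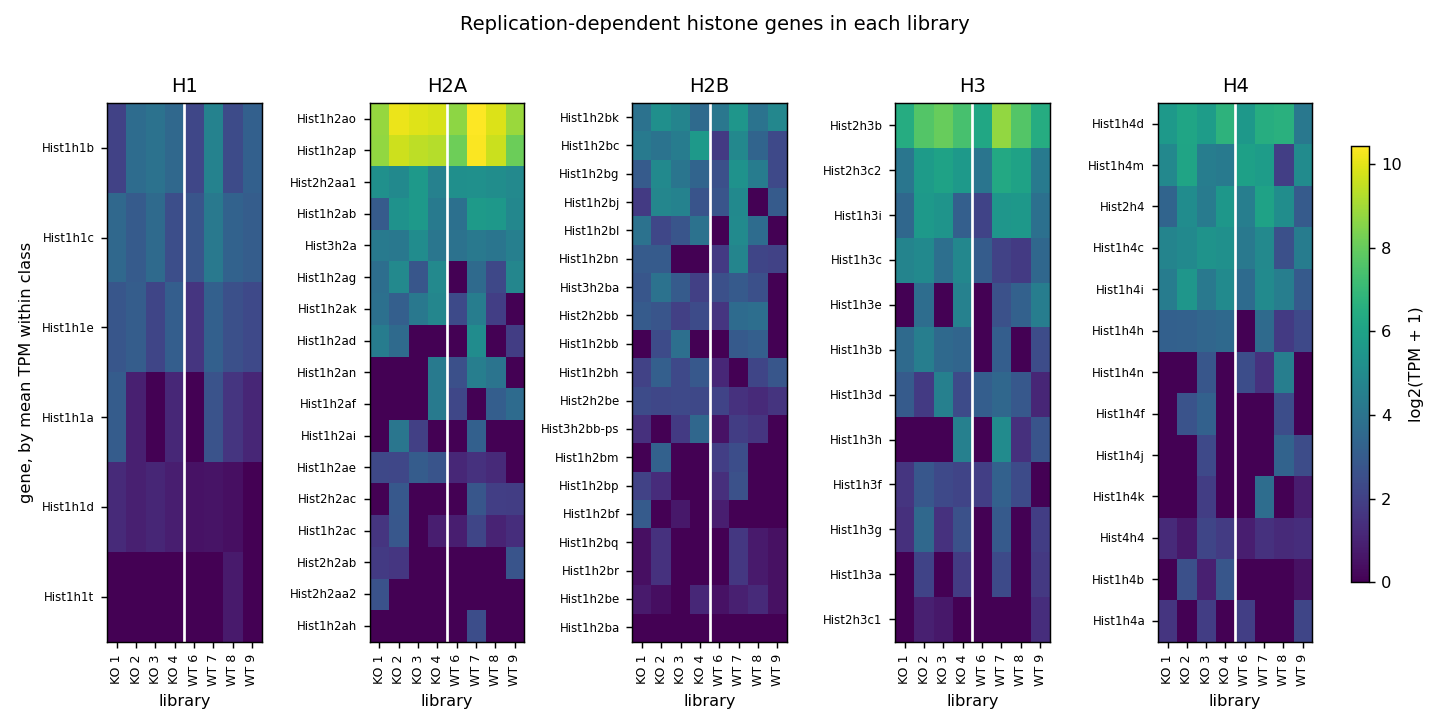
Level of each of the 67 histone genes, as log2(TPM + 1) in colour, by class (panels), with the 4 KO libraries left of the white line and the 4 WT libraries right of it. Hist1h2ao and Hist1h2ap stand above all others, and many genes of each core class are at 0 in some libraries.

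Below that pair came the H3 gene Hist2h3b with a mean of 187 TPM over the 8 libraries, the H4 gene Hist1h4d with 65.9 TPM and the H3 gene Hist2h3c2 with 44.0 TPM. A mean of at least 10 TPM was reached by 21 genes and a mean of at least 1 TPM by 58. Detection was patchy: 23 genes were above 0 in all 8 libraries, 12 in 7 and 11 in 4. Hist1h2ba, the testis-specific H2B, was at 0 in every library, and Hist1h1t, the testis linker histone, was above 0 in WT 8 alone, at 0.69 TPM. Hist1h2ah and Hist2h2aa2 were also above 0 in 1 library each. WT 7 had the most histone genes above 0 (55 of 67) and WT 6 the fewest (42).

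Most H2A and H2B genes of these clusters lie in pairs that are read in opposite directions from 1 shared gap. In the annotation 12 such pairs were found, with 172 to 301 bases between the gene starts. Partners often differed widely in level. The mean of Hist1h2ao was 1207-fold that of its partner Hist1h2bq, and the mean of Hist1h2ap was 940-fold that of Hist1h2br. Hist1h2bq and Hist1h2br each averaged 0.687 TPM, a few units of the deposited score at most, and were listed at 0 in KO 3, KO 4 and WT 6. The size of these 2 ratios is therefore imprecise. In the opposite direction, Hist1h2bk averaged 23.6 TPM, while its partner Hist1h2ah was listed at 0 in 7 libraries and at 4.498 TPM in WT 7, so no ratio is given for that pair. Hist1h2ag and Hist1h2bj were the closest pair, at 14.9 and 12.7 TPM. The levels of most partners rest on sequence shared with other genes, so the size of these ratios depends on the read assignment.

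**Figure D2:**
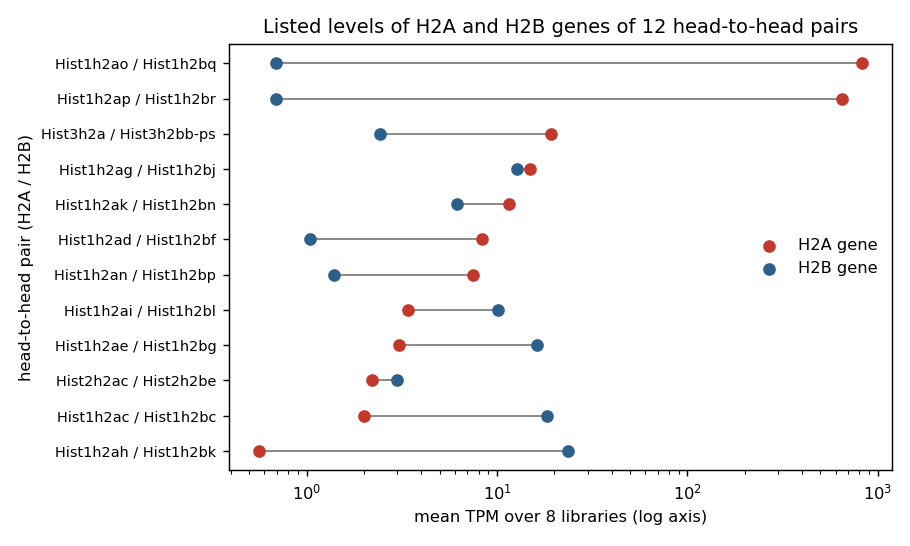
Mean TPM over the 8 libraries (log axis) of the H2A gene (red) and the H2B gene (blue) of each of the 12 head-to-head pairs, joined by a line. The Hist1h2ah point rests on WT 7 alone, and the gap between the points is 1207-fold for Hist1h2ao and Hist1h2bq and 1.17-fold for Hist1h2ag and Hist1h2bj. The Hist1h2bq point, at 0.687 TPM, rests on few units of the deposited score.

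The study's comparison, KO against WT, showed no difference in total histone RNA beyond the spread between mice. The 67 genes summed to 1420, 2917, 2567 and 2380 TPM in KO libraries 1 to 4, against 1096, 4159, 2501 and 1212 TPM in WT libraries 6 to 9. The means were 2321 ± 641 TPM in KO and 2242 ± 1428 TPM in WT libraries (SD, n = 4 each), a log2 ratio of 0.05. WT libraries held both the lowest sums (WT 6 and WT 9) and the highest (WT 7), and all KO sums lay inside the WT range. Histone RNA was 0.142% to 0.292% of the KO libraries and 0.110% to 0.416% of the WT libraries. In bulk RNA, fewer dividing cells and less histone RNA per cell cannot be told apart. When 1 library was left out, the log2 ratio was negative without KO 2 (-0.079), KO 3 (-0.0021), WT 6 (-0.18) or WT 9 (-0.16). It was positive without each of the other 4 libraries and highest without WT 7 (0.53). Without WT 6 and WT 9 it was -0.52, and without KO 3, KO 4, WT 6 and WT 9 it was -0.62.

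Each class gave the same picture. Linker histone genes summed to 28.1, 28.1, 30.5 and 24.8 TPM in KO libraries, against 11.8, 54.9, 20.8 and 20.8 TPM in WT libraries. The H1 sum was nearly the same in the 4 KO libraries, and WT 7 was the highest and WT 6 the lowest of all. Single H1 genes varied more. In KO libraries Hist1h1b had 3.12, 11.8, 14.4 and 10.5 TPM, and Hist1h1a had 7.28, 0.907, 0 and 1.26 TPM. H2B genes summed to 127 ± 29.8 TPM in KO and 110 ± 90.4 TPM in WT libraries, H3 genes to 320 ± 113 TPM in KO and 309 ± 232 TPM in WT libraries, and H4 genes to 213 ± 57.9 TPM in KO and 188 ± 81.3 TPM in WT libraries (SD, n = 4 each). The log2 ratios of the class sums were 0.04 for H1, 0.02 for H2A, 0.20 for H2B, 0.05 for H3 and 0.18 for H4, and KO and WT sums overlapped in every class. All 5 ratios were negative without WT 6 and WT 9, from -0.21 for H4 to -0.58 for H3. All 5 were positive without WT 7, at 0.65 for H1, 0.49 for H2A, 0.94 for H2B, 0.66 for H3 and 0.47 for H4.

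**Figure D3:**
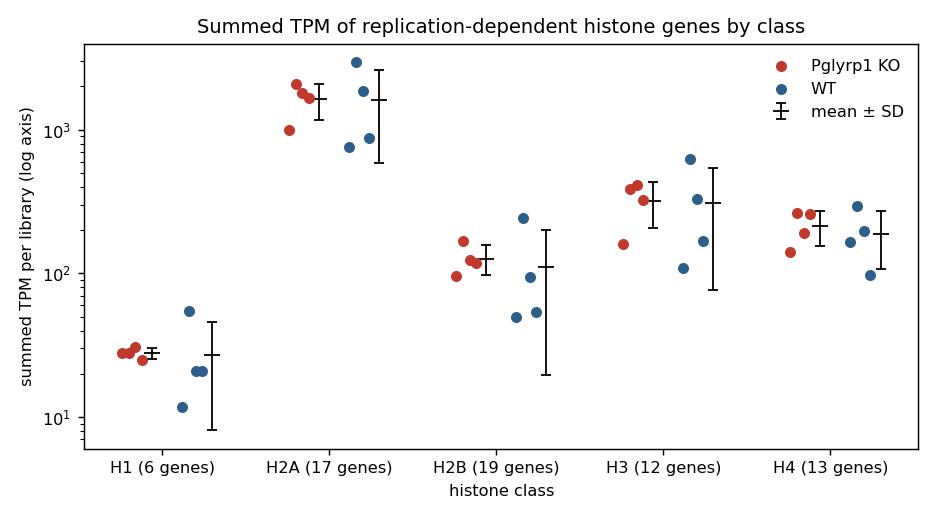
Summed TPM per library (log axis) of the genes of each histone class, with KO libraries in red left of WT libraries in blue, and the mean with its SD in black (n = 4 each). In every class the KO points lie within the spread of the WT points or overlap it, as in H2A at 993 to 2075 TPM in KO and 760 to 2943 TPM in WT libraries.

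The order of the libraries in total histone RNA ran alongside other genes of the cycle. The 10 G2 and mitosis genes of a fixed list summed to 327, 731, 607 and 621 TPM in KO libraries, against 275, 917, 654 and 288 TPM in WT libraries. As for the histones, WT 7 was highest and WT 6, WT 9 and KO 1 were lowest. Histone TPM per TPM of G2 and mitosis genes was 4.34, 3.99, 4.23 and 3.83 in KO libraries, against 3.99, 4.54, 3.82 and 4.21 in WT libraries. This ratio spanned 1.19-fold over the 8 libraries, where the histone sum spanned 3.79-fold, and its means were 4.10 ± 0.229 in KO and 4.14 ± 0.309 in WT libraries (SD, n = 4 each). Without Hist1h2ao and Hist1h2ap, which hold most of the histone TPM, the ratio spanned 1.42-fold. By class it spanned 2.69-fold for H1, 1.20-fold for H2A, 2.04-fold for H2B, 1.71-fold for H3 and 1.97-fold for H4. Per TPM of the 30 DNA replication and S phase genes, histone TPM was 1.13, 1.73, 1.56 and 1.09 in KO libraries, against 1.08, 2.18, 1.54 and 1.07 in WT libraries, a span of 2.03-fold. KO 4 had the highest sum of S phase genes, 2193 TPM, but not of histone genes. The 7 naive and memory T cell genes summed to 1314, 914, 837 and 365 TPM in KO libraries, against 2220, 556, 627 and 1988 TPM in WT libraries. They were highest in WT 6, WT 9 and KO 1, the libraries lowest in histone RNA. These sums come from the same libraries and share their scaling. The part of naive or memory cells in the histone values was not tested.

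**Figure D4:**
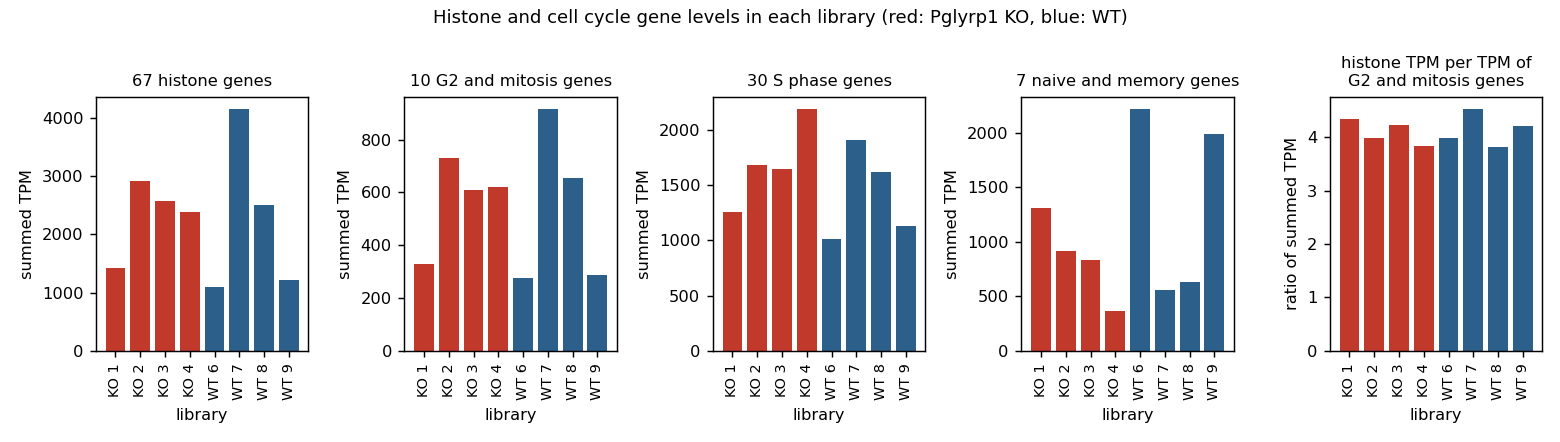
Summed TPM per library of the 67 histone genes, 10 G2 and mitosis genes, 30 S phase genes and 7 naive and memory T cell genes, and histone TPM per TPM of G2 and mitosis genes, with KO in red and WT in blue. Histone and mitosis sums share their low libraries (KO 1, WT 6 and WT 9), while the ratio in the last panel, for all 67 genes together, stays between 3.82 and 4.54.

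Not every class sum or single gene followed this order. The H1 and H2B sums were lower in WT 8 (20.8 and 94.5 TPM) than in KO 1 (28.1 and 96.3 TPM). WT 7 was the highest library for 21 of the 50 tested histone genes (42%), and for 15.7% of all genes tested. KO 1, WT 6 and WT 9 were the 3 lowest libraries for 7 of the 50 (14%), near the 11.6% of all genes. The 7 were Hist1h2ao, Hist1h2ap, Hist1h2bg, Hist1h3f, Hist1h4d, Hist2h3b and Hist2h3c2, which include the 3 most abundant genes of the family.

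A test of single genes was made for the 50 histone genes that reached 1 TPM in 4 or more libraries. The other 17 were 2 H1, 4 H2A, 6 H2B, 1 H3 and 4 H4 genes, each with a mean of at most 3.39 TPM. Over all genes tested, limma called 3 of 10732 at a Benjamini-Hochberg adjusted p under 0.05 (0.028%), and none of these was a histone gene. The lowest adjusted p among the 50 was 0.300. Unadjusted p was under 0.05 for 8 histone genes, all higher in KO, where 6.01% of all genes were under 0.05 and higher in KO, and for 0 lower in KO, where 3.07% of all genes were. KO and WT values did not overlap for 4 of the 50, all higher in KO, beside 2.62% of all genes, and for 0 lower in KO, beside 2.4%. Differences were positive in 33 and negative in 17 of the 50, with a median of 0.22 on the log2(TPM + 1) scale, against 5926 positive and 4806 negative of 10732 genes with a median of 0.04. The filter keeps a low gene only where enough libraries hold it, so these counts describe the 50 and not the 67.

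**Figure D5:**
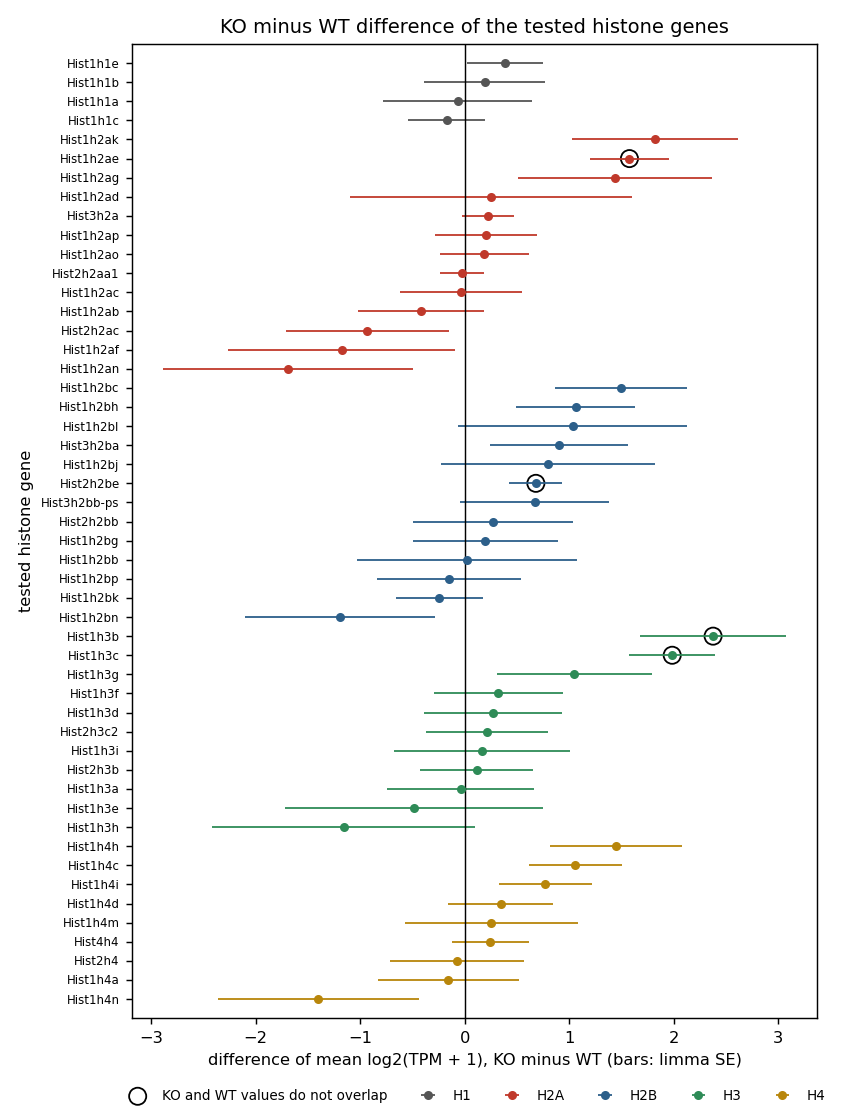
KO minus WT difference of mean log2(TPM + 1) for each of the 50 tested histone genes, by class in colour, with bars of 1 limma standard error. Rings mark the 4 genes whose KO and WT values do not overlap (Hist1h2ae, Hist2h2be, Hist1h3b and Hist1h3c), and no gene passed the adjusted test.

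Among the linker histones, Hist1h1b, Hist1h1c and Hist1h1e, which encode somatic H1 subtypes, were the most abundant. Hist1h1b averaged 9.95 ± 4.82 TPM in KO and 9.87 ± 9.25 TPM in WT libraries, Hist1h1c 8.34 ± 3.11 TPM in KO and 9.85 ± 5.28 TPM in WT libraries, and Hist1h1e 6.15 ± 1.88 TPM in KO and 4.73 ± 2.53 TPM in WT libraries (SD, n = 4 each). Their differences of 0.19, -0.17 and 0.39 on the log2(TPM + 1) scale were smaller than or about as large as their standard errors of 0.58, 0.37 and 0.36. Hist1h1d, a further somatic H1 gene, was too low to be tested and is named after its values were seen. It had 1.39, 0.907, 1.20 and 0.842 TPM in KO libraries, against 0.406, 0.450, 0.347 and 0 TPM in WT libraries. Its KO and WT values did not overlap, at levels of a few units of the deposited score.

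Among the 13 tested H2A genes, 7 had positive and 6 had negative differences, with a median of 0.19. Hist1h2ae had 3.81, 3.63, 7.18 and 5.47 TPM in KO libraries, against 1.22, 1.80, 1.39 and 0 TPM in WT libraries. All KO values lay above all WT values. The difference was 1.58 with a standard error of 0.38 (limma adjusted p = 0.379). The two-sided exact permutation p of 0.0286 is the smallest that 4 against 4 libraries can give. Groups that do not overlap always give this value, so it restates the non-overlap and is no further test. Of its 38-base words, 53.7% are its own.

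Hist1h2an, at the other end, had 0, 0, 0 and 18.5 TPM in KO libraries, against 4.88, 21.1, 15.3 and 0 TPM in WT libraries. The groups overlapped, with KO 4 among the highest and WT 9 at 0. Its difference was -1.69 with a standard error of 1.19 (limma adjusted p = 0.688). With 1 library left out it lay between -1.12 (without WT 7, limma adjusted p = 0.753) and -2.76 (without KO 4, limma adjusted p = 0.781), and was -2.61 without WT 9 (limma adjusted p = 0.595). Without KO 3, KO 4, WT 6 and WT 9 it was -4.25 (limma adjusted p = 0.0164), in a fit of 2 libraries per group that leaves out both KO 4 and WT 9, the libraries that overlap the other group. Only 13.2% of its 38-base words are its own. Hist2h2aa1, a canonical H2A of the Hist2 cluster, was the steadiest of the abundant members, at 34.3 ± 10.2 TPM in KO and 33.9 ± 3.27 TPM in WT libraries (SD, n = 4 each), a difference of -0.03 with a standard error of 0.21. It did not follow the order of the libraries: KO 1 and WT 6, low in total histone RNA, held 36.4 and 35.8 TPM of it. Its transcript shares 89.4% of its 38-base words with Hist2h2aa2. Hist1h2ak, which was not chosen by the rule for named genes, also had an unadjusted p under 0.05, with a difference of 1.82 (limma adjusted p = 0.541).

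Class H2B had the largest median difference, 0.67 over 13 tested genes, of which 10 were positive and 3 negative. Hist2h2be had 4.16, 3.63, 3.89 and 3.79 TPM in KO libraries, against 3.25, 1.80, 1.39 and 1.97 TPM in WT libraries. The KO values lay close together, and each was above all WT values. The difference was 0.68 with a standard error of 0.25 (limma adjusted p = 0.501, and exact permutation p = 0.0286, set by the non-overlap). Hist2h2be encodes an H2B of the Hist2 cluster, and 99.1% of its 38-base words are its own, so its value rests little on shared reads.

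Hist1h2bc had 18.4, 14.8, 19.7 and 49.7 TPM in KO libraries, against 2.44, 27.9, 9.38 and 3.93 TPM in WT libraries. KO 4 stood above the other KO libraries, and WT 7 overlapped the KO group. Its difference was 1.496 with a standard error of 0.64 (limma adjusted p = 0.529). It was 2.09 without WT 7, 0.46 without WT 6 and WT 9, and 0.015 without KO 3, KO 4, WT 6 and WT 9. Hist1h2bk, the most abundant H2B gene, averaged 21.6 ± 11.01 TPM in KO and 25.6 ± 13.2 TPM in WT libraries, and Hist1h2bg 15.5 ± 10.5 TPM in KO and 16.9 ± 16.5 TPM in WT libraries (SD, n = 4 each). Hist1h2bn had 6.93, 6.95, 0 and 0 TPM in KO libraries, against 2.44, 26.1, 3.47 and 3.15 TPM in WT libraries, with a difference of -1.19 and a standard error of 0.91 (-0.50 without WT 7). One WT library held most of its RNA, and the groups overlapped.

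The largest positive differences of single genes were in class H3. Hist1h3c had 25.3, 29.6, 13.2 and 27.8 TPM in KO libraries, against 7.32, 3.15, 2.43 and 10.2 TPM in WT libraries. Every KO value was above every WT value, and WT 7, the library richest in histone RNA, was among the lowest. The difference was 1.99 with a standard error of 0.41 (limma adjusted p = 0.300, and exact permutation p = 0.0286, set by the non-overlap). Without KO 3 and KO 4, where the myeloid sum was high, it was 2.23 (limma adjusted p = 0.961). Without those and WT 6 and WT 9 it was 2.91 (limma adjusted p = 0.0327), with 2 libraries per group. That fit leaves out the highest WT values (WT 6 and WT 9) and the lowest KO value (KO 3). Over 21 alternative fits the difference lay between 1.45 and 2.91.

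Hist1h3b had 11.1, 21.2, 10.8 and 9.68 TPM in KO libraries, against 0, 7.65, 0 and 4.33 TPM in WT libraries. All KO values were above all WT values, and WT 6 and WT 8 were listed at 0. The difference was 2.38 with a standard error of 0.70 (limma adjusted p = 0.412, and exact permutation p = 0.0286, set by the non-overlap). Over 21 alternative fits it lay between 1.26 and 4.04. Both genes encode canonical H3. Without KO 3 and KO 4, the differences of the other genes that did not overlap were 2.65 for Hist1h3b, 1.27 for Hist1h2ae and 0.69 for Hist2h2be. Of their own 38-base words Hist1h3c has 47.7% and Hist1h3b 38.8%, and Hist1h3c shares 47.0% of its words with Hist1h3b.

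The abundant H3 genes did not share this. Hist2h3b had 87.3, 198, 257 and 169 TPM in KO libraries, against 73.2, 429, 197 and 87.7 TPM in WT libraries. The KO values lay inside the WT range. Hist2h3c2 averaged 44.6 ± 20.1 TPM in KO and 43.4 ± 31.3 TPM in WT libraries, and Hist1h3i 26.9 ± 20.9 TPM in KO and 26.9 ± 21.9 TPM in WT libraries (SD, n = 4 each). Hist1h3h was listed at 0 in KO 1, KO 2, KO 3 and WT 6, and had 22.3 TPM in KO 4, against 31.5, 1.74 and 5.51 TPM in WT 7, WT 8 and WT 9. Only 5.88% of its 38-base words are its own, and 83.2% are shared with Hist1h3i.

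Among the 9 tested H4 genes, 6 had positive and 3 had negative differences, with a median of 0.26. As a rule the H4 genes encode the same protein. Hist1h4c had 25.0, 30.2, 40.4 and 36.6 TPM in KO libraries, against 17.5, 28.8, 4.86 and 19.7 TPM in WT libraries. WT 7 was above KO 1, so the groups overlapped. Its difference was 1.06 with a standard error of 0.44 (limma adjusted p = 0.527, exact permutation p = 0.0571), and 0.58 without WT 8. Hist1h4h, which was not chosen by the rule for named genes, also had an unadjusted p under 0.05, with a difference of 1.45 (limma adjusted p = 0.538).

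Hist1h4d averaged 69.2 ± 26.2 TPM in KO and 62.7 ± 37.7 TPM in WT libraries, Hist1h4m 33.9 ± 23.3 TPM in KO and 37.3 ± 25.9 TPM in WT libraries, and Hist2h4 26.6 ± 15.7 TPM in KO and 31.3 ± 24.0 TPM in WT libraries (SD, n = 4 each). None of these groups was apart. Hist1h4n was above 0 in KO 3 alone among KO libraries, at 5.98 TPM, against 4.47, 1.80, 21.2 and 0 TPM in WT libraries, a difference of -1.40 with a standard error of 0.96 (-0.61 without WT 8). Of its 38-base words, 83.7% occur in Hist1h4m.

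Genes that make, process and place histone RNA and protein were followed through fixed lists. Of the 17 tested genes of histone mRNA transcription and 3′ processing, 9 had positive and 8 negative differences, with a median of 0.03. Limma called 0 of them, and 1 (Lsm10) had an unadjusted p under 0.05 and was higher in KO. Over all genes tested 0.028% were called, and 6.01% were under 0.05 and higher in KO. Slbp, whose protein binds the stem-loop, had 102, 101, 107 and 101 TPM in KO libraries, against 63.8, 120, 105 and 68.0 TPM in WT libraries. WT 6 and WT 9 were low in Slbp as in histone RNA, and KO 1 was not. Npat, a coactivator of histone gene transcription at the histone locus body, averaged 6.46 ± 0.411 TPM in KO and 6.45 ± 2.26 TPM in WT libraries (SD, n = 4 each). Lsm10, a subunit of the U7 particle that takes part in the 3′ cut, had a difference of 0.55 (limma adjusted p = 0.505), and Ncbp1, of the cap-binding complex, one of -0.26 (limma adjusted p = 0.629).

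Variants of the replication-independent list, whose mRNAs mostly carry poly(A) tails, were 5 positive and 4 negative of 9 tested, with a median of 0.12. How the RNA of each variant ends was not examined. Limma called 0, beside 0.028% of all genes tested. The unadjusted p was under 0.05 and higher in KO for 1 (Cenpa), beside 6.01% of all genes. H2afx, the variant marked at DNA breaks, had 63.1, 91.9, 77.5 and 69.9 TPM in KO libraries, against 56.9, 142, 93.8 and 53.9 TPM in WT libraries. As for the histone sum, WT 7 was highest and WT 6, WT 9 and KO 1 were lowest. Cenpa, the centromeric H3 variant, had a difference of 0.86 (limma adjusted p = 0.478), and H3f3b, which encodes H3.3, one of 0.40 (limma adjusted p = 0.632). The variants summed to 2895 ± 336 TPM in KO and 2516 ± 412 TPM in WT libraries (SD, n = 4 each), for 11 genes, above the means of 2321 TPM in KO and 2242 TPM in WT libraries of the 67 replication-dependent genes.

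Histone chaperones and assembly factors were 12 positive and 10 negative of 22, with a median of 0.03. Limma called 0, and the unadjusted p was under 0.05 for 1 higher (Hat1) and 1 lower (Asf1a). Over all genes tested 0.028% were called, 6.01% were under 0.05 and higher in KO, and 3.07% were under 0.05 and lower. Asf1a, an H3-H4 chaperone, had a difference of -0.95 (limma adjusted p = 0.472), and Hat1, which acetylates new H4, one of 0.42 (limma adjusted p = 0.527). The 30 DNA replication and S phase genes were 29 positive and 1 negative, with a median of 0.31. Of all genes tested 55.2% were positive, with a median of 0.04. In the S phase list limma called 0, and 1 (Pcna) had an unadjusted p under 0.05, higher in KO. Pcna, the sliding clamp, had a difference of 0.39 (limma adjusted p = 0.525), and Cdc45, of the replicative helicase, one of 0.62 (limma adjusted p = 0.550). All 10 G2 and mitosis genes were positive, with a median of 0.23, and limma called 0, with 0 at an unadjusted p under 0.05. Birc5 and Aurkb, of the chromosomal passenger complex, had differences of 0.34 (limma adjusted p = 0.782) and 0.36 (limma adjusted p = 0.848). Genes of these lists were measured in the same libraries, and their counts are not independent of each other.

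Marker genes of myeloid, natural killer, epithelial and erythroid cells had larger median differences than any histone class, and limma called 0 genes of the marker lists. Higher in KO at unadjusted p under 0.05 were 10 of 15 myeloid, 5 of 7 natural killer cell and 1 of 3 epithelial genes. Over all genes tested this share was 6.01%. Lower in KO were 1 of 10 T cell identity and 1 of 7 naive and memory genes, beside 3.07% of all genes. All 15 tested myeloid genes were positive, with a median of 2.47. Tyrobp and Fcer1g, signalling adaptors of myeloid and natural killer cells, had differences of 3.39 and 3.72 (limma adjusted p = 0.395 for each). All 7 natural killer cell genes were positive, with a median of 1.41, among them Klra7 (1.41) and Klre1 (1.86). The 3 tested epithelial genes were positive, with Epcam, an adhesion protein of epithelia, at 1.498 and Krt8 at 1.48. The 3 tested erythroid genes were positive, with Hbb-b2 at 2.42 and Alas2 at 1.00, and the 2 tested B cell genes were negative, with Cd79b at -0.90 and Cd79a at -0.62. T cell identity genes were 3 positive and 7 negative, with Cd8b1 at -0.38 and Lck at -0.31. All 7 naive and memory genes were negative, with a median of -0.57, among them Il7r (-0.46) and Lef1 (-0.97). None of the fibroblast genes passed the filter.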

How the data were processed

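RNA was measured in 8 libraries, 4 from KO and 4 from WT mice, each from a mouse of its own by the series' design text. The p-values therefore reflect variation among mice. The deposited values are a score, called by the authors a TPM-normalized count. They are whole numbers, and library sums lie between 2223162 and 3342847. Per the submitters' processing notes, RSEM 1.3.3 and mm10 were used. Aligner, annotation, strand setting and scaling: not given in the sources used here. Depth is unknown, so no counting intervals are given. Here the libraries were scaled to sum to 1000000, and the result is written TPM (1 unit of the score is 0.299 to 0.450 TPM). The test had been planned for TPM and was kept.

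Genes that reached 1 TPM in 4 or more libraries were fitted with limma 3.58.1 (R 4.3.3, mean trend, genotype as the only term) on log2(TPM + 1), which understates changes of low genes. Smaller fits asked for as many libraries as the smaller group has. P-values were Benjamini-Hochberg adjusted over all genes tested. Exact permutation tests used 70 assignments and were two-sided. The pipeline was tested on simulated data. Coordinates are 1-based. Stem-loops and 38-base words come from GENCODE M21 transcripts (GRCm38), promoters from RefSeq (GRCm38.p6), where all 67 genes matched by symbol or synonym. Without a stated strand, reads of overlapping genes cannot be told apart (23 of the 67 overlap another gene).

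The members, lists and rules were chosen with earlier results of these data known. The rule names every histone gene past the threshold, the 3 of highest mean per class, the smallest p per class and direction, those whose groups do not overlap, and Hist1h2an and Hist1h3c. In each other list it names the 2 of smallest p. Alternatives were pseudocounts of 0.1 and 5, no filter or 5 TPM, other scalings, no trend, array weights, and libraries left out. Python 3.11.15 and pandas 2.3.3 handled the tables.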

Additional observations from a re-analysis of the deposited data

Results flagged for a closer look

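For each of the 24 named histone genes and for the sums, the 4 libraries of a group were searched for a value far from the other 3, judged by the gap to the nearest value over the whole range (Dixon's criterion at 95%). Of 60 groups examined 6 had one. The criterion's rate of 1 in 20, or 3, assumes independent and normally distributed values. Groups that share reads or hold many zeros do not meet this, so 3 is no chance level for these data. Where the other 3 libraries are listed at 0, the measure is 1 whatever the remaining value. Hist1h2an had 18.5 TPM in KO 4, with the other KO libraries listed at 0. Hist1h3h had 22.3 TPM in KO 4, with the other KO libraries listed at 0. Hist1h2bc had 49.7 TPM in KO 4, against 14.8 to 19.7 TPM in the other KO libraries. Thus 3 of the 6 values are from KO 4, the library with the highest myeloid sum, and the part of that sum was not tested. Hist1h3b had 21.2 TPM in KO 2, against 9.68 to 11.1 TPM in the other KO libraries, and Hist1h4n 5.98 TPM in KO 3, with the others listed at 0. Hist1h2bn had 26.1 TPM in WT 7, against 2.44 to 3.47 TPM in the other WT libraries.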

How the results depend on the processing

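No paired analysis was possible because KO libraries are numbered 1 to 4 and WT libraries 6 to 9, with no number in common. The count of genes past the threshold was 3 and became 5 without KO 3 and KO 4, 5 without WT 6 and WT 9, and 10 without all 4, and ranged from 2 to 9 when 1 library was left out (5 without KO 1, 9 without KO 2). Histone genes past it were 0 in every fit but that without KO 3, KO 4, WT 6 and WT 9, where 2 were (Hist1h2an, lower, and Hist1h3c, higher). For both genes that fit drops libraries that brought the KO and WT values closer. With the deposited scaling the median of all genes was 0.25 (0.04 as reported), and genes of unadjusted p under 0.05 were 1418 higher and 58 lower, against 645 and 329 as reported, 565 and 535 with quantile normalization, and 531 and 634 when scaled without ribosomal and top genes. Relative to that median, the sign of small differences depends on scaling. For the summed TPM of all histone genes, the log2 ratio of 0.05 became 0.33 with the deposited scaling. It was -0.014 when scaled without ribosomal and top genes. By class the deposited scaling gave 0.34 for H1, 0.30 for H2A, 0.51 for H2B, 0.35 for H3 and 0.43 for H4. Scaled without ribosomal and top genes these were -0.028, -0.040, 0.16, -0.0054 and 0.077. Differences of named genes changed sign as follows. With array weights Hist2h4 was 0.060. With the deposited scaling Hist1h1c was 0.041, Hist2h2aa1 0.20 and Hist2h4 0.14. Without ribosomal and top genes in the scaling Hist2h3b was -0.020. Without KO 3 and KO 4 Hist2h3c2 was -0.23, Hist2h3b -0.22, Hist1h2bn 0.30, Hist1h1b -0.24 and Hist1h2ao -0.015. Without WT 6 and WT 9 Hist1h4d was -0.50, Hist1h2ao -0.51, Hist1h2ap -0.73, Hist1h1e -0.073, Hist2h3b -0.81, Hist1h1b -0.19, Hist2h3c2 -0.79, Hist1h2bg -1.01 and Hist1h3i -1.12. Without all 4 Hist2h3c2 was -1.23, Hist2h3b -1.14, Hist1h1b -0.63, Hist1h4d -0.70, Hist1h2ap -0.80, Hist1h2ao -0.71, Hist1h2bg -0.88 and Hist1h3i -0.99. Leaving out 1 library gave -0.10 to 0.70 for Hist1h1b, -0.37 to 0.12 for Hist1h1c, -0.078 to 0.51 for Hist1h2ao, -0.11 to 0.65 for Hist1h2ap, -0.25 to 0.76 for Hist1h2bg, -0.51 to 0.049 for Hist1h2bk, -0.56 to 0.61 for Hist1h3i, -0.17 to 0.65 for Hist1h4d, -0.66 to 0.68 for Hist1h4m, -0.19 to 0.14 for Hist2h2aa1, -0.24 to 0.61 for Hist2h3b, -0.16 to 0.63 for Hist2h3c2 and -0.62 to 0.38 for Hist2h4. The cause was not tested. Hist1h3c, Hist1h3b, Hist1h2ae and Hist2h2be kept a positive difference in every fit that tested them. These genes were named because their groups do not overlap, which fixes that sign in most fits. Only the fits with another scaling or quantile normalization could have changed it. With unknown depth, levels of 1 to 5 TPM rest on few units of the score.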
